A study of Mus musculus with 32 samples.

Results

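Fgfr1, Fgfr2, Fgfr3, Spry1, Spry2, Spry4, Dusp6, Dusp7, Etv4 and Etv5 are 10 genes of the response to fibroblast growth factors (FGFs): 3 receptors and 7 genes that the kinase ERK induces or that restrain its activity. They were chosen by name, as the rows with these symbols, out of 19974 gene rows measured in 32 libraries of mouse epidermal organoids and skin tissue, and each symbol matched 1 row. FGFs bind receptor tyrosine kinases at the cell surface, and the receptors signal through RAS to ERK. Active ERK in turn raises the transcription of genes that limit the same signal, so that the transcripts of such genes are often read as a record of recent pathway activity. In skin, an epithelial splice form of Fgfr2 receives FGFs made in the dermis, among them Fgf10, while Fgf1 can bind all of the FGF receptors.

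Expression was measured by CEL-seq2, in which reads come from the 3′ ends of polyadenylated RNA, in cells of strain Bl/6 mice. Organoids are keratinocytes that grow as clusters in culture, and their RNA was taken at day 7. The labels count these days from the last passage for early Fgf10 and late organoids, and from culture for all others. Every organoid medium held forskolin, which raises cyclic AMP, or an inhibitor of TGF-beta signalling, or both. Unpassaged organoids gave 1 library in each of 5 media: forskolin alone, forskolin with Fgf10, forskolin with Fgf1, forskolin with the inhibitor, and the inhibitor alone. Early organoids were at passages 7 to 12 (within 3 months of culture). Of their libraries 4 had Fgf10 and 2 had Fgf1, each on top of forskolin, while 4 had the inhibitor plus forskolin and 2 had no factor but the inhibitor. The 6 libraries of late organoids, from passages 23 to 30 (within 6 months), all had Fgf1 and forskolin. Tissue gave 3 libraries each of epidermis between the follicles (sorted for Itga6 and Sca1), of hair follicles in anagen (the growth phase), and of a mix of anagen follicles and resting (telogen) ones. Forskolin without FGF or inhibitor was present in the unpassaged state only, so in passaged organoids an FGF medium could be set against the other FGF or against the inhibitor, never against forskolin alone.

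Total counts ran from 412582 to 3351435 per library, and 10511 to 15649 genes were detected. All 8 basal keratinocyte markers (among them Krt5 and Krt14) were detected in every library, with summed levels of 15788 to 45090 CPM (counts scaled to a library total of 1000000) in organoids, 30572 to 32880 CPM in sorted epidermis, 7415 to 13865 CPM in mixed follicles and 349 to 2416 CPM in anagen follicles, where hair matrix and inner root sheath markers, keratins among them, summed to 41613 to 61680 CPM. By their gene lists the deposited files form 11 sets, each with 1 list, called source tables here. The unpassaged libraries share 1 of them with replicate 1 of each early FGF group, whereas tissues, late organoids and the other early libraries share none with each other, so source table and group cannot be told apart in those comparisons. Nothing in the labels ties replicates to different mice or cultures, and p-values therefore measure only the spread among these samples, possibly a technical one.

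The receptors lie at chr8:25513654-25575718 (Fgfr1, plus strand), chr7:130162451-130266808 (Fgfr2, minus strand, RefSeq extent) and chr5:33721674-33737068 (Fgfr3, plus strand) in GRCm38, the mm10 assembly. The Sprouty genes encode inhibitors that act between receptor and RAS, and 2 of them lie at chr3:37639947-37644598 (Spry1, plus strand) and chr14:105891947-105896819 (Spry2, minus strand). Dusp6, a phosphatase that inactivates ERK in the cytoplasm, lies at chr10:99263231-99267489 on the plus strand, and Dusp7, a related ERK phosphatase, at chr9:106368632-106375724 on the plus strand. The ETS transcription factor genes Etv4 and Etv5 lie on the minus strand at chr11:101769742-101785371 and chr16:22381309-22439719. All 10 are protein-coding, and the 9 positions are whole genes. The predicted gene Gm16159 overlaps an Fgfr1 exon on the opposite strand and has a row of its own. The strand used in counting is not given in the sources used here, so reads of that pair cannot be told apart. In the GENCODE M21 annotation Fgfr2 spans 2960900 bases, well beyond the RefSeq extent given above. Under that longer model Ctbp2, which also has a row, reaches an Fgfr2 exon on the same strand.

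Promoter windows were available for 7 of the 10 genes in the RefSeq table for GRCm38.p6, each of 300 bases with 250 before and 50 after a start site. Those of Dusp6, Spry2 and Spry1 are shown because these 3 genes fell together with passaging in FGF media, as described further on. They are printed on the gene's own strand, 5′ to 3′, and capitals mark each GGAA, the core that ETS factors such as Etv4 and Etv5 recognise, or TTCC, the same core on the other strand.
Dusp6, chr10:99262981-99263280, plus strand: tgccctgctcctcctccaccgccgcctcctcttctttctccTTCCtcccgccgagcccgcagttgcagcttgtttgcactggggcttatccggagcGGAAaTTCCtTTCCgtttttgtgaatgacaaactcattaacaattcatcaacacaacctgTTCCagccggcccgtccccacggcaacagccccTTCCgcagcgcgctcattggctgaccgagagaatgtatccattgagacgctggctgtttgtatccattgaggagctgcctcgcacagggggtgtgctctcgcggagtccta
Spry2, chr14:105896770-105897069, minus strand: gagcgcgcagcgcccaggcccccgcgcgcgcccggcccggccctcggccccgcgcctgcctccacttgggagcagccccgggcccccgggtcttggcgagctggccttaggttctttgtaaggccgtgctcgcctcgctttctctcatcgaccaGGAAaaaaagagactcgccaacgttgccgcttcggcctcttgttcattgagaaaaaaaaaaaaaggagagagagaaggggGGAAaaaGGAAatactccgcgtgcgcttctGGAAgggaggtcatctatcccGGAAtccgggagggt
Spry1, chr3:37639697-37639996, plus strand: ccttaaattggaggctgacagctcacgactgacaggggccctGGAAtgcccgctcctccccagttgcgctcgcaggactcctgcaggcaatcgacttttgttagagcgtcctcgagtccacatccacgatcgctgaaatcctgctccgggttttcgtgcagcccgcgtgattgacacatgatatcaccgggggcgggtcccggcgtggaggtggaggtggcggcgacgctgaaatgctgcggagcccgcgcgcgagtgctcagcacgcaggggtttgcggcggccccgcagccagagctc
The core occurred 6 times in the Dusp6 window, 5 times in that of Spry2 and 1 time in that of Spry1. At 4 bases it is common, and 96.0% of 32851 promoter windows of the same length hold it on either strand. Longer motifs for an ETS site (CCGGAAG, in 8.86% of windows), for the cyclic AMP response element (TGACGTCA, 1.79%) and for AP-1 (TGANTCA, 7.81%), searched on both strands, occurred in none of the 9 windows of the 7 genes. The core was searched for after the longer motifs had given no match, and its counts are a description of these letters only.

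**Figure D1:**
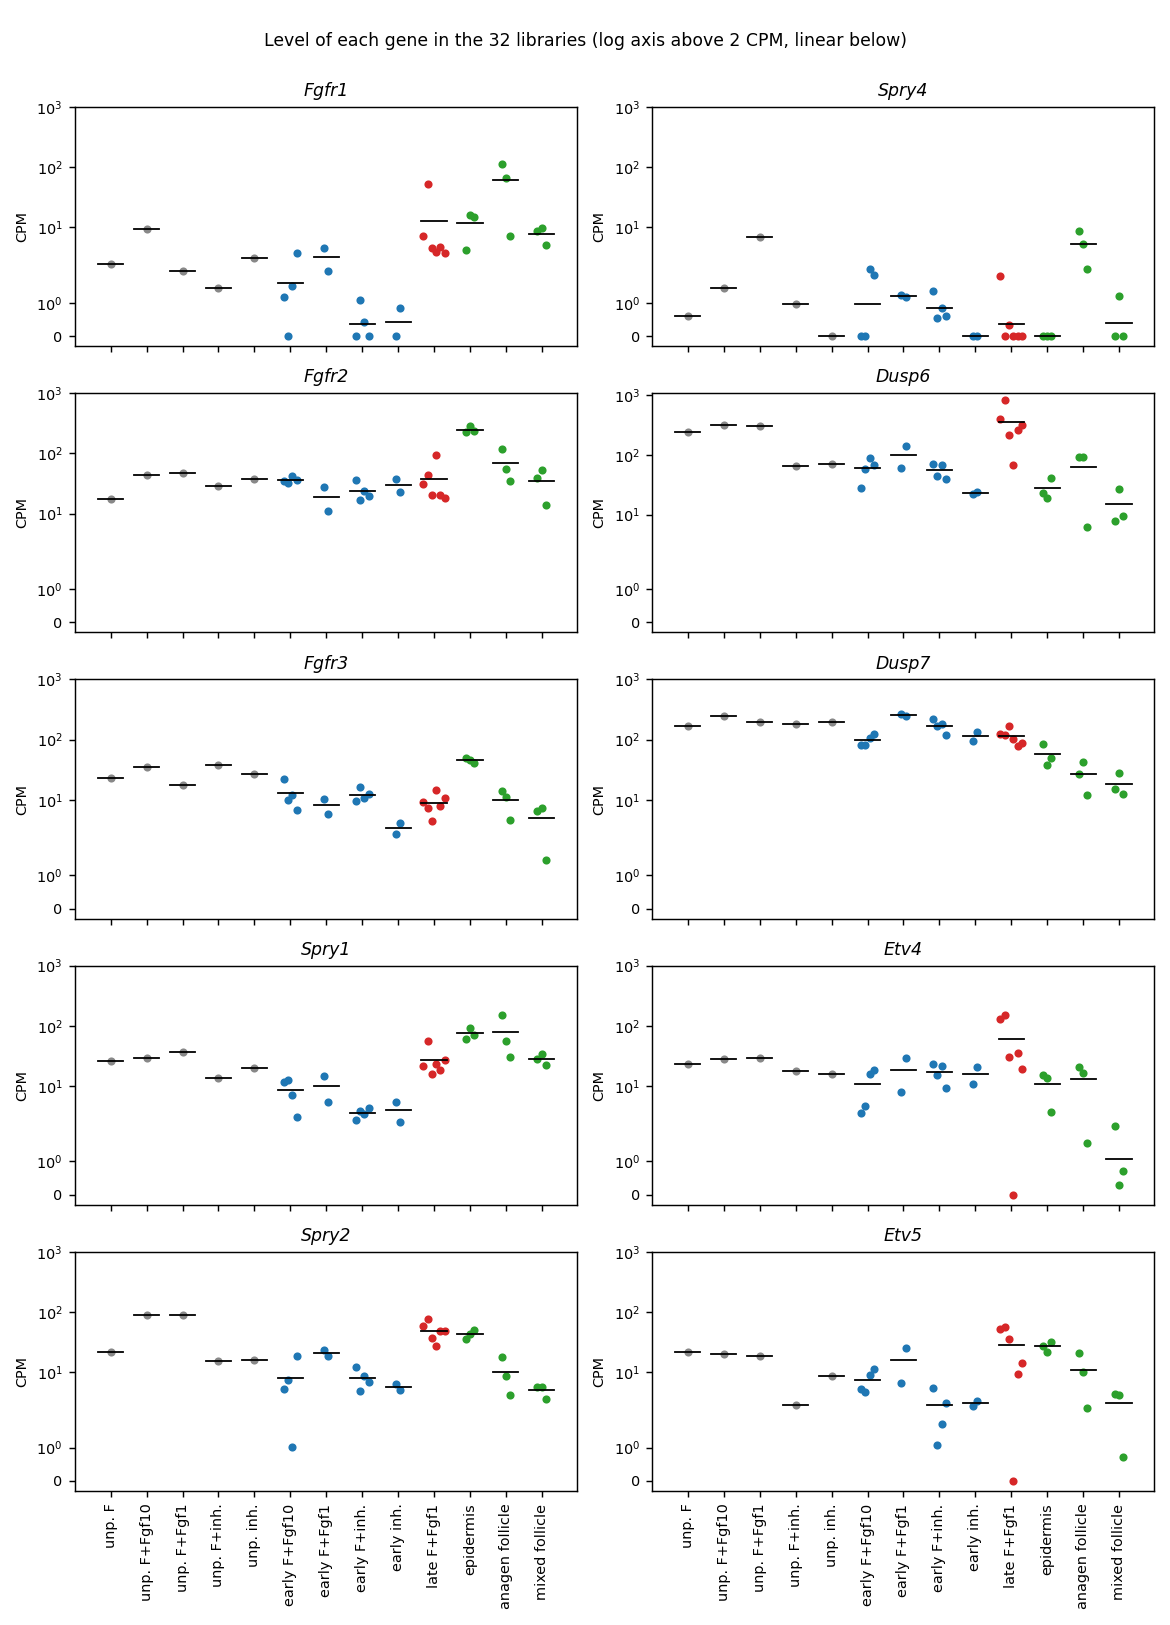
CPM of each of the 10 genes (y axis, log scale above 2 CPM and linear below) in the 32 libraries, by group (x axis; unp., unpassaged; F, forskolin; inh., TGF-beta inhibitor). Each point is a library and each bar a group mean. Dusp6 reached 834 CPM in a late library and Fgfr2 223 to 281 CPM in sorted epidermis, while Spry4 stayed at or under 8.75 CPM everywhere.

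Levels over the 13 groups, in CPM by library totals, set the receptors apart from each other. Factors of TMM, the scaling used in the tests, ranged from 0.411 to 0.791 in mixed follicles and 1.29 to 1.36 in sorted epidermis. The order of groups with close levels therefore depends on the scaling. Fgfr2 was highest in sorted epidermis, at 247 ± 30.6 CPM (SD, n = 3), followed by anagen follicles at 69.9 ± 44.7 CPM (n = 3), and every other group mean lay between 17.7 and 47.6 CPM. Without anagen replicate 1 the anagen mean was 44.8 CPM, within that range. Fgfr3 was also highest in sorted epidermis, at 45.2 ± 4.18 CPM (n = 3), next to the unpassaged libraries at 17.5 to 38.0 CPM, and lowest in early organoids with the inhibitor alone at 3.43 ± 1.00 CPM (n = 2). Fgfr1 was highest in anagen follicles at 61.9 ± 52.9 CPM (n = 3), where its spread between libraries was nearly as large as its mean, and its means in all early groups lay between 0.375 and 3.23 CPM. Late organoids came next for Fgfr1 at 12.9 ± 19.8 CPM (n = 6), within 1 SD of sorted epidermis at 11.8 ± 6.54 CPM (n = 3). Without late replicate 2 their mean was 4.80 CPM, under epidermis, the unpassaged Fgf10 library (9.45 CPM) and mixed follicles (7.83 CPM).

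Among the ERK-linked genes, the order of groups by CPM differed from gene to gene. With TMM scaling, described further on, Dusp6 was lower in epidermis than in mixed follicles, and Dusp7 lower in anagen than in mixed follicles, neither called. Dusp6 was highest by mean in late organoids, at 351 ± 262 CPM (n = 6), close to the unpassaged FGF media at 322 and 311 CPM, and lowest in mixed follicles at 14.8 ± 10.7 CPM (n = 3). Without late replicate 2 the late mean was 254 CPM, under both unpassaged FGF libraries. Dusp7 was highest in early organoids with Fgf1, at 252 ± 13.9 CPM (n = 2), within 1 SD of the unpassaged Fgf10 library at 247 CPM, and lowest in mixed follicles at 18.3 ± 8.08 CPM (n = 3). Spry2 was highest in the unpassaged FGF media, at 88 and 87.5 CPM, followed by late organoids at 49.1 ± 17.4 CPM (n = 6) and sorted epidermis at 43.1 ± 6.88 CPM (n = 3), whose means lay within 1 SD of each other. Spry1 was highest in anagen follicles at 79.8 ± 64.3 CPM (n = 3) and sorted epidermis at 74.4 ± 17.2 CPM (n = 3), again within the spread (43.3 CPM in anagen without replicate 1), and lowest in early organoids with forskolin and the inhibitor at 3.55 ± 0.665 CPM (n = 4). Etv4 was highest in late organoids at 61.2 ± 63.5 CPM (n = 6) and lowest in mixed follicles at 1.06 ± 0.970 CPM (n = 3). Etv5 had like means in late organoids, 27.9 ± 23.4 CPM (n = 6), and sorted epidermis, 26.9 ± 4.95 CPM (n = 3). Spry4 was scarce: its largest group value was 6.80 CPM, from 7 counts in the unpassaged library with Fgf1, and its row was absent from 5 files (sorted epidermis and late replicates 4 and 5), where it was taken as 0. In sorted epidermis a total of 0 counts allows up to 4.06 to 6.39 CPM per library (3 counts), for counting error only.

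The unpassaged libraries ask what an FGF adds to forskolin in freshly cultured cells. Spry2 and Fgfr2 were higher with either FGF, and Dusp6 and Etv5 were lower with the TGF-beta inhibitor. There is 1 library per medium, so none of these differences has a replicate check, and the 3 comparisons share the library with forskolin alone. Spry2 stood at 21.4 CPM with forskolin alone, 88 CPM with added Fgf10 and 87.5 CPM with added Fgf1, ratios of 4.11 (exact binomial 95% interval 2.80 to 6.17, counting error only) and 4.08 (2.74 to 6.22). It was 15.4 CPM with added inhibitor and 15.7 CPM with the inhibitor alone, so the media without FGF lay together and well under both FGF media. Fgfr2 stood at 17.7 CPM with forskolin alone, 43.6 CPM with Fgf10 (ratio 2.46, 1.55 to 3.97) and 47.6 CPM with Fgf1 (ratio 2.68, 1.66 to 4.41), with 28.9 and 36.8 CPM in the inhibitor media. Fgfr1 rested on few counts, 4 with forskolin alone and 13 with Fgf10, a ratio of 3.86 with an interval of 1.19 to 16.3.

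Dusp6 was already at 246 CPM with forskolin alone. It was 322 CPM with Fgf10 (ratio 1.31, 1.14 to 1.5), 311 CPM with Fgf1 (ratio 1.26, 1.09 to 1.47), 66.5 CPM with forskolin and the inhibitor (ratio 0.270, 0.221 to 0.329) and 70.1 CPM with the inhibitor alone. Thus the 3 media without inhibitor were high and both inhibitor media low for Dusp6. Etv5 split the same way, at 21.4, 19.6 and 18.5 CPM without the inhibitor and 2.89 and 8.54 CPM with it (ratio of the forskolin media 0.135, 0.0464 to 0.324). Spry1 with added inhibitor was at a ratio of 0.512 (0.307 to 0.844), just inside 2-fold, and its ratios with Fgf10 and Fgf1 were 1.10 and 1.37. The ratios of Dusp7 and Etv4 to forskolin alone lay between 0.766 and 1.45 for all 3 added factors. Past 2-fold were 3 members for Fgf10 (Fgfr1, Fgfr2 and Spry2), against 14.1% of 8604 genes with at least 10 counts in either library. For Fgf1 there were 2 (Fgfr2 and Spry2), against 12.4% of 8358 genes, and for the inhibitor 2 (Dusp6 and Etv5, both lower), against 21.1% of 9091 genes. For the inhibitor the share of members is near that of all genes. Spry4 had under 10 counts in all 3 comparisons, and Fgfr1 with Fgf1 and with the inhibitor, and they were not counted there. The fibroblast and dermal papilla list moved with the same split: its 9 genes summed to 234, 358 and 427 CPM without the inhibitor and to 16.9 and 31.0 CPM with it. Sparc carried most of that sum, at 232, 345 and 416 CPM against 16.4 and 26.1 CPM, while Col1a1 was at 0 to 0.972 CPM in all 5 libraries. The Langerhans and T cell list split likewise, at 72.8, 55.2 and 59.3 CPM without the inhibitor against 13.5 and 13 CPM with it. Nearly all of that was the class II gene H2-Ab1, with Cd207, Cd3e, Cd3g and Ptprc at 0 in these 5 libraries. The basal keratinocyte list stood at 33273, 34639 and 31809 CPM without the inhibitor and 23108 and 28164 CPM with it. Their part in the result was not tested. In bulk samples, fewer cells of a type and less RNA per cell cannot be told apart, here and in what follows.

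**Figure D2:**
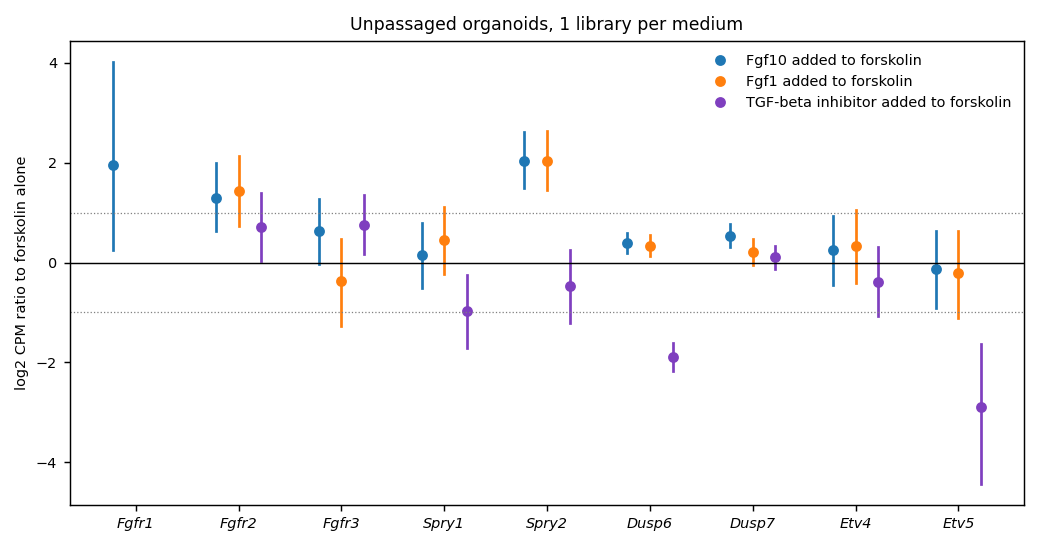
Log2 ratio of CPM in unpassaged organoids with an added factor to the library with forskolin alone (y axis), for the genes with at least 10 counts in either library (x axis). Bars are exact binomial 95% intervals for counting error, dotted lines mark 2-fold, and each medium is 1 library. Spry2 lies at a ratio of about 4 with either FGF (4.11 and 4.08) and Dusp6 and Etv5 lie under the lower line with the inhibitor.

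In early passaged organoids the replicated media could be tested, and no member passed in any of the 4 comparisons of media. Dusp7 came closest. Its levels were 79.7, 81.2, 108 and 122 CPM with Fgf10 and 262 and 242 CPM with Fgf1, so both Fgf1 libraries lay above all 4 Fgf10 libraries. The log2 fold change was 1.28 (SE 0.28, unadjusted p = 0.000211, adjusted p = 0.353, edgeR quasi-likelihood test with Benjamini-Hochberg adjustment over 9919 genes). With forskolin and the inhibitor Dusp7 was at 218, 167, 181 and 119 CPM, between the 2 FGFs, at a log2 difference of -0.68 for Fgf10 (adjusted p = 0.354) and 0.61 for Fgf1 (adjusted p = 0.800). Dusp7 for Fgf1 against Fgf10 passed with DESeq2 (adjusted p = 0.0199) and when only those 6 libraries were fitted (adjusted p = 0.0456). Over all 15 alternatives the adjusted p ran from 0.0199 to 1.00. Between these media 3 marker lists did not overlap either: the basal list (44600 and 45090 CPM with Fgf1 against 30629 to 35830 CPM with Fgf10), the differentiated list (7010 and 10200 CPM against 16882 to 27211 CPM) and the outer root sheath list (16154 and 18039 CPM against 7446 to 15412 CPM). Their part in the difference was not tested.

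Spry2, the gene that stood out in the unpassaged media, was low in early organoids. It was at 5.28, 7.38, 1.00 and 18.4 CPM with Fgf10, 23.0 and 18.3 CPM with Fgf1, 12.3, 4.83, 8.56 and 6.78 CPM with forskolin and the inhibitor, and 6.36 and 4.97 CPM with the inhibitor alone. Both Fgf1 libraries lay above the 4 with forskolin and the inhibitor (log2 fold change 1.44, SE 0.58, adjusted p = 0.599), while the Fgf10 libraries overlapped them (0.16, SE 0.54, adjusted p = 1.00). Etv5 was at 6.57 and 25.4 CPM with Fgf1, above the 5.45, 1.07, 1.71 and 3.08 CPM with forskolin and the inhibitor (2.70, SE 0.89, adjusted p = 0.316), and at 5.28, 4.70, 9.03 and 11.1 CPM with Fgf10 (1.70, SE 0.84, adjusted p = 0.716). Spry1 was at 14.8 and 5.46 CPM with Fgf1 and 11.7, 12.8, 7.02 and 3.07 CPM with Fgf10, against 2.72, 3.76, 3.42 and 4.32 CPM with forskolin and the inhibitor (1.46, adjusted p = 0.581, and 1.33, adjusted p = 0.463). The Fgf1 libraries did not overlap the inhibitor libraries for Spry1, and the Fgf10 libraries did. Dusp6, at 28.1, 58.4, 89.2 and 67.6 CPM with Fgf10, 60.8 and 140 CPM with Fgf1 and 70.8, 44.5, 68.4 and 39.5 CPM with forskolin and the inhibitor, overlapped across these media.

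Among the receptors in early organoids, Fgfr2 was at 34.6, 32.2, 41.6 and 35.6 CPM with Fgf10 and 27.1 and 10.9 CPM with Fgf1, both lower (log2 fold change -1.01, SE 0.54, adjusted p = 1.00). When forskolin was added to the inhibitor, Fgfr3 was at 9.54, 16.1, 10.7 and 12.3 CPM against 2.72 and 4.14 CPM with the inhibitor alone (1.79, SE 0.61, unadjusted p = 0.00893, adjusted p = 0.554), and Dusp6 was at 39.5 to 70.8 CPM against 21.8 and 24.0 CPM (1.21, SE 0.68, adjusted p = 0.852). For both genes all 4 libraries with forskolin lay above both without it. Fgfr1 stayed at 0 to 4.52 CPM in all 12 early libraries. Of the 9 members tested (Spry4 fell under the filter on low counts), 0 were called for Fgf1 against Fgf10, where edgeR called 0% of all genes. At an unadjusted p under 0.05 it had 2 members and 328 genes there, and DESeq2 called 1 member and 15 genes. For forskolin 0 members were called, again against 0% of all genes, with 1 member and 623 genes at an unadjusted p under 0.05 and 0 members and 24 genes called by DESeq2. For Fgf10 and for Fgf1 against the inhibitor 0 members were called, against 0.575% and 0.595% of all genes. At an unadjusted p under 0.05 these had 2 and 4 members, beside 718 and 605 of 9919 genes. DESeq2 called 0 members in both, beside 138 and 109 genes. The 2 FGF media share the inhibitor libraries in these comparisons. Of the genes around the receptors, Sdc2, a heparan sulphate co-receptor, was higher with Fgf10 (1.77, adjusted p = 0.0267) and with Fgf1 (2.02, adjusted p = 0.0269) than with the inhibitor. It was the only call among 66 tested genes of the wider FGF, ERK and EGF lists for either FGF. Sparc also moved with these media, at 24.8 to 182 CPM with Fgf10 and 276 and 540 CPM with Fgf1 against 3.70 to 9.66 CPM with forskolin and the inhibitor, with Col1a1 at 0 to 1.23 CPM in these libraries. Its part in the differences was not tested.

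Passaging was tested by setting the early against the unpassaged libraries of the same 4 media, with medium as a term. Spry2, Spry1, Fgfr3 and Dusp6 were lower after passaging. The log2 fold changes over all media were -2.11 for Spry2 (SE 0.39, adjusted p = 0.00327), -1.79 for Spry1 (SE 0.30, adjusted p = 0.00177), -1.56 for Fgfr3 (SE 0.27, adjusted p = 0.00241) and -1.47 for Dusp6 (SE 0.29, adjusted p = 0.00536). That is 4 of 10 members, where 11.4% of 9984 genes were called. The other 6 members had log2 fold changes from -1.5 to -0.42 and did not pass. The members' median was -1.31, beside 0.01 over all genes tested. Scaling by library totals in place of TMM moved the median of all genes by -0.13 and the share of calls that were higher from 44.8% to 26.1%, and these 4 calls held under it.

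In the FGF media alone the difference was largest for Spry2 and Dusp6. Spry2 was at 88 CPM unpassaged and 1.00 to 18.4 CPM early with Fgf10, and at 87.5 CPM unpassaged and 18.3 and 23.0 CPM early with Fgf1, so that every early library lay below both unpassaged ones (log2 fold change -2.76, SE 0.45, adjusted p = 0.00237). Dusp6 was at 322 CPM unpassaged and 28.1 to 89.2 CPM early with Fgf10, and at 311 CPM unpassaged and 60.8 and 140 CPM early with Fgf1, again with no overlap (-1.97, SE 0.35, adjusted p = 0.00437). Spry1 was at 29.1 and 36.0 CPM unpassaged and 3.07 to 14.8 CPM early in the same media (-1.70, SE 0.41, adjusted p = 0.0257). These are the 3 members called in FGF media, against 4.29% of all genes. In inhibitor media Fgfr3 was called, at 38.0 and 26.5 CPM unpassaged and 2.72 to 16.1 CPM early (-1.90, SE 0.38, adjusted p = 0.0334), the 1 member called against 0.481% of all genes. There scaling by library totals moved the share of higher calls from 50% to 31.2%, and Spry1, at 13.5 and 20.2 CPM unpassaged and 2.49 to 5.45 CPM early, passed only under it, DESeq2 or no filter (-1.90, SE 0.46, adjusted p = 0.0748 as fitted, 0.000946 to 0.590 over 16 alternatives).

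Whether passaging differed between FGF and inhibitor media was tested directly. The difference was -1.73 for Spry2 (SE 0.76, unadjusted p = 0.0357, adjusted p = 0.712) and -1.24 for Dusp6 (SE 0.57, unadjusted p = 0.0438, adjusted p = 0.727), and 0 of 10 members were called, against 0.03% of all genes. By edgeR 2 members, these, had an unadjusted p under 0.05, beside 678 of 9984 genes. DESeq2 called 0 members and 19 genes. The calls leaned on single libraries. Without the unpassaged Fgf10 library 0 of 3 passed in FGF media, at log2 fold changes of -2.04 for Spry2 (adjusted p = 0.327), -1.58 for Dusp6 (adjusted p = 0.338) and -1.79 for Spry1 (adjusted p = 0.338), and over 16 alternatives their adjusted p ran from 1.17e-15, 8.54e-12 and 0.00063 to these values. Spry1 in FGF media also failed without the unpassaged Fgf1 library (adjusted p = 0.197) or early Fgf1 replicate 2 (adjusted p = 0.0639). Over all media Spry2 (-1.45, adjusted p = 0.0862) and Dusp6 (-1.05, adjusted p = 0.102) did not pass without the unpassaged Fgf10 library, within 6.56e-14 to 0.0970 and 1.18e-10 to 0.102 over 25 alternatives. Fgfr3 in inhibitor media failed without either unpassaged library, without early replicate 3 or 4 with forskolin and the inhibitor, or without either early library with the inhibitor alone (adjusted p 0.0507 to 0.480, within 3.31e-05 to 0.480 over 16 alternatives). The source table of the unpassaged libraries holds 1 early library with each FGF and none with the inhibitor. A fit within it took passaging from the FGF media only, with 1 library per group, and does not check Fgfr3 in inhibitor media. Its log2 fold changes were -0.65 for Fgfr3, -1.26 for Spry1 and -2.29 for Etv4. In these libraries Spry2 was at 88 CPM unpassaged and 5.28 CPM early with Fgf10, and at 87.5 and 23.0 CPM with Fgf1. Dusp6 was at 322 and 28.1 CPM with Fgf10, and at 311 and 60.8 CPM with Fgf1. The differentiated epidermis list moved with passaging in the FGF media, standing with Fgf10 at 4089 summed CPM unpassaged and 16882 to 27211 CPM early, and with Fgf1 at 3270 CPM unpassaged and 7010 and 10200 CPM early, with 7 of its 8 genes detected in each library. The Langerhans and T cell list went the other way, from 55.2 CPM unpassaged to 0 to 5.28 CPM early with Fgf10 and from 59.3 to 1.95 and 2.46 CPM with Fgf1, again with Cd207, Cd3e and Cd3g at 0 throughout. The fibroblast list stood at 358 CPM unpassaged and 26.2 to 188 CPM early with Fgf10, but at 427 CPM unpassaged and 277 and 540 CPM early with Fgf1. Their part in the result was not tested. Among the wider lists, 3 of 13 tested co-receptor and adaptor genes were lower over all media: Fgfbp1, which carries FGFs (-0.91, adjusted p = 0.0092), and the co-receptors Sdc4 (-0.90, adjusted p = 0.0144) and Sdc2 (-1.39, adjusted p = 0.00277). The EGF receptor ligand Tgfa was lower too (-1.89, adjusted p = 0.000839). Of 19 other ERK feedback and ERK-induced genes tested, Myc alone passed (-1.28, adjusted p = 0.0137). Over the wider FGF, ERK and EGF lists 8 of 64 tested genes were called over all media, a share near the 11.4% of all genes.

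**Figure D3:**
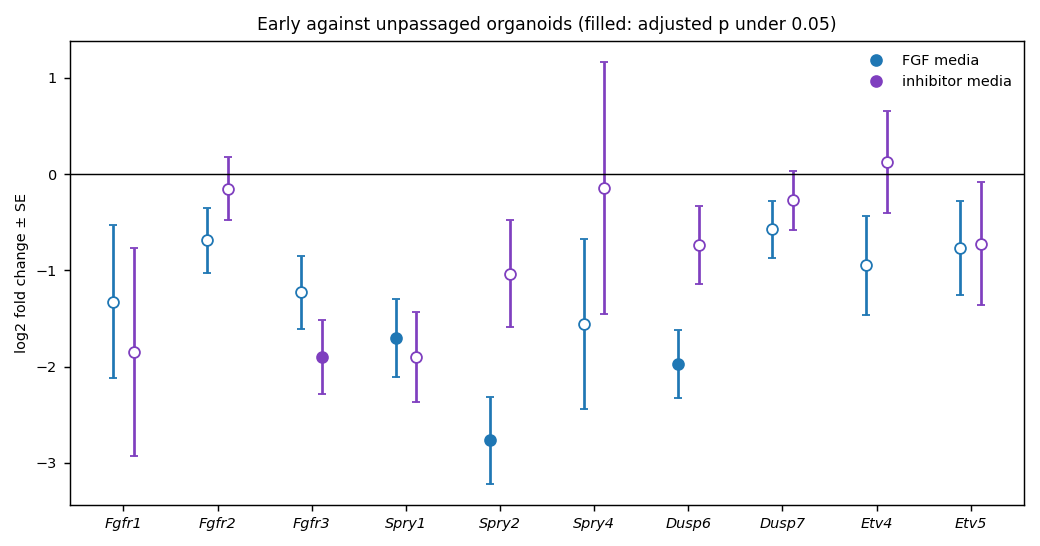
Log2 fold change of early against unpassaged organoids (y axis, with its standard error) for each gene (x axis), in the FGF media and in the inhibitor media. Filled points passed at an adjusted p under 0.05. Spry1, Spry2 and Dusp6 passed in FGF media (-1.70, -2.76 and -1.97) and Fgfr3 in inhibitor media (-1.90).

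Late organoids extend the Fgf1 culture to passages 23 to 30, and 1 member, Dusp7, passed against early Fgf1 organoids. Dusp7 was lower in late than in early Fgf1 organoids: the late libraries held 122, 119, 168, 103, 78.9 and 87.6 CPM in the order of their numbers and the early ones 262 and 242 CPM, with no overlap (log2 fold change -1.25, SE 0.26, adjusted p = 0.00951). It was the only 1 of 9 members called, against 6.71% of all genes. The basal keratinocyte list also did not overlap, at 15788 to 31711 summed CPM late against 44600 and 45090 CPM early with all 8 genes detected, nor did the outer root sheath and upper follicle list, at 4527 to 9729 CPM late against 16154 and 18039 CPM early (6 or 7 of 8 genes). Their part in the result was not tested. Dusp6 was higher by 1.69 (SE 0.63, adjusted p = 0.107), at 403, 834, 219, 69.0, 258 and 323 CPM late against 60.8 and 140 CPM early, and only late replicate 4 fell into the early range. Spry2, at 57.5, 77.6, 36.5, 27.3, 48.0 and 47.6 CPM late against 23.0 and 18.3 CPM early (1.14, SE 0.57, adjusted p = 0.221), and Spry1, at 15.7 to 55.7 CPM late against 14.8 and 5.46 CPM early (1.27, SE 0.54, adjusted p = 0.157), did not overlap either but did not pass. Etv4 was at 129, 153, 30.7, 0, 35.6 and 19.0 CPM late and 7.80 and 29.3 CPM early (1.5, SE 0.97, adjusted p = 0.350).

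The call of Dusp7 rested on the 2 early libraries: without either of them the adjusted p was 0.0888 or 0.0875, and with the 4 early Fgf10 libraries pooled in it was 0.165 (0.000458 to 0.165 over 17 alternatives). With that pooled early group 5 other members passed as higher in late organoids, Dusp6 (2.08, adjusted p = 0.00197), Spry2 (1.82, adjusted p = 0.00573), Spry1 (1.35, adjusted p = 0.0128), Etv4 (1.92, adjusted p = 0.0396) and Fgfr1 (2.13, adjusted p = 0.0397). Over all genes 2453 were called there, against 666 as fitted. The pooled group held 4 libraries with Fgf10 and 2 with Fgf1, so passage and FGF cannot be told apart in it. Without late replicate 4, where 1097 of all genes were called, Dusp6 passed as well (1.90, adjusted p = 0.0263, within 0.00197 to 0.512 over 17 alternatives). Around them, Sdc2 was higher in late organoids (1.66, adjusted p = 0.0117), as was the ERK gene Mapk3 (1.86, adjusted p = 0.0182), while the RAS gene Nras (-0.84, adjusted p = 0.0305), the phosphatase gene Ptpn11 (-1.30, adjusted p = 0.0089) and the EGF receptor ligand Epgn (-1.80, adjusted p = 0.0279) were lower. Of 20 other ERK feedback and ERK-induced genes tested 0 passed, and 4 had an unadjusted p under 0.05. Over the wider FGF, ERK and EGF lists 5 of 66 tested genes were called, a share near the 6.71% of all genes.

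Sorted epidermis differed from hair follicles in receptors and in Spry2. Fgfr2 was at 223, 281 and 235 CPM in epidermis, 120, 55.2 and 34.4 CPM in anagen follicles and 39.4, 52.5 and 13.7 CPM in mixed follicles, with epidermis above every follicle library. The log2 fold change of epidermis was 1.42 against anagen (SE 0.52, adjusted p = 0.0428) and 1.83 against mixed follicles (SE 0.53, adjusted p = 0.0148). Fgfr3 was at 49.0, 46.0 and 40.7 CPM in epidermis, 14.1, 11.2 and 4.62 CPM in anagen and 6.45, 7.16 and 1.44 CPM in mixed follicles (1.76, SE 0.45, adjusted p = 0.00543, and 2.14, SE 0.47, adjusted p = 0.00231). Spry2 was at 36.2, 43.3 and 49.9 CPM in epidermis, 17.5, 8.55 and 4.10 CPM in anagen and 5.73, 5.67 and 3.61 CPM in mixed follicles (1.70, SE 0.40, adjusted p = 0.00309, and 2.05, SE 0.42, adjusted p = 0.0015). For both genes epidermis again lay above every follicle library.

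Fgfr1 went the other way against anagen follicles, at 4.26, 16.2 and 14.8 CPM in epidermis and 113, 65.8 and 7.18 CPM in anagen follicles (-2.58, SE 0.87, adjusted p = 0.0277). The groups overlapped through anagen replicate 3. Spry1 was at 59.6, 93.3 and 70.3 CPM in epidermis, 153, 55.9 and 30.8 CPM in anagen and 27.9, 34.3 and 22.4 CPM in mixed follicles, and was not called. Etv4, at 14.9, 13.5 and 3.70 CPM in epidermis and 20.4, 16.4 and 1.54 CPM in anagen, was near 0 in mixed follicles at 2.15, 0.298 and 0.722 CPM, where the 3 libraries held 5 counts in all. Its difference between anagen and mixed follicles did not pass (3.08, SE 1.39, adjusted p = 0.222). Anagen replicate 3 was the lowest of its group for all 10 members, and its basal keratinocyte list summed to 349 CPM against 2416 and 1190 CPM in the other two, its fibroblast list to 35.4 CPM against 530 and 113 CPM, and its melanocyte list to 70.8 CPM against 269 and 193 CPM. Their part in these differences was not tested.

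In count, 4 of 9 members were called for epidermis against anagen follicles, against 34.2% of 10843 genes, and 3 of 9 against mixed follicles, against 30.3%. Both shares are near the background. For anagen against mixed follicles 0 of 9 were called, against 6.63% of all genes. There edgeR had 2 of 9 members and 2187 of 10843 genes at an unadjusted p under 0.05, like shares, and DESeq2 called 0 members. TMM factors ranged from 0.411 to 0.791 in mixed follicles and from 1.29 to 1.36 in epidermis, so scaling matters for these comparisons. Library totals in place of TMM moved the median of all genes by 0.43, 1.00 and 0.56 in the 3 comparisons, and the share of higher calls from 43.4% to 61.9%, from 39.1% to 77.7% and from 18.2% to 42.8%. No called member changed direction, but Fgfr1 and Dusp6 for epidermis against mixed follicles, neither called, turned from -0.41 to 0.60 and from -0.16 to 0.85, and Dusp7 for anagen against mixed follicles changed sign too. With counts thinned to the smallest library none of the 4 calls against anagen held, and those of Fgfr1 and Fgfr2 were lost in 8 and 6 of 14 alternatives (adjusted p 0.00274 to 0.116 and 0.0042 to 0.139), among them without any 1 epidermis library, without anagen replicate 2 and, for Fgfr1, without anagen replicate 1 or, for Fgfr2, replicate 3. Against mixed follicles only Fgfr2 passed with thinned counts, and Fgfr2 did not pass without mixed replicate 3 (1.65, adjusted p = 0.0588, within 3.04e-05 to 0.0588).

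Of the wider FGF, ERK and EGF lists, 26 of 70 tested genes were called for epidermis against anagen follicles and 20 of 70 against mixed follicles, shares near the 34.2% and 30.3% of all genes. The ERK phosphatase gene Dusp2 had no count in sorted epidermis and 417 ± 153 CPM (SD, n = 3) in anagen and 297 ± 37.0 CPM (n = 3) in mixed follicles. Dusp1, a phosphatase gene induced by stress and growth factors, was higher in epidermis than in anagen (3.98, SE 0.77, adjusted p = 0.000804) and mixed follicles (3.06, SE 0.75, adjusted p = 0.00513). In all, 2 of 22 tested genes of the other ERK feedback list were higher and 5 lower in epidermis than in anagen follicles, again a share near that of all genes. Fgfbp1 was higher in epidermis than in anagen (4.13, SE 0.53, adjusted p = 2.45e-05) and Tgfa lower (-6.04, SE 0.83, adjusted p = 4.66e-05). Markers of immune cells were present in epidermis (Langerhans and T cell list 216 to 402 summed CPM, 7 of 7 genes) and lower in anagen follicles (1.32 to 8.26 CPM). Fibroblast genes reached 903 to 1959 CPM in mixed follicles. Their part was not tested.

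Late organoids were then set against each tissue, where Dusp6 and Dusp7 were higher in all 3 comparisons. Against sorted epidermis, Dusp6 was higher in all 6 late libraries (69.0 to 834 CPM, median 291 CPM) than in epidermis, at 23.4, 18.9 and 40.7 CPM. The log2 fold change was 3.84 (SE 0.77, adjusted p = 0.00181). Fgfr2, at 30.6, 43.6, 20.1, 93.7, 20.1 and 18.1 CPM late, lay below all 3 epidermis libraries (-2.54, SE 0.44, adjusted p = 0.000591), and so did Fgfr3, at 4.48 to 14.3 CPM late (-2.15, SE 0.39, adjusted p = 0.000848). Spry1, at 21.6, 55.7, 15.7, 23.4, 18.6 and 26.7 CPM late, was also lower with no overlap (-1.33, SE 0.40, adjusted p = 0.0253). Late organoids and epidermis also did not overlap in the Langerhans and T cell list (2.60 to 119 CPM with 1 to 3 of 7 genes, mostly H2-Ab1, against 216 to 402 CPM with all 7), the hair matrix list (89.7 to 300.2 CPM against 1230 to 1400 CPM, 2 to 4 of 10 genes) or the outer root sheath list (4527 to 9729 CPM against 839 to 2177 CPM). Against anagen follicles the hair matrix list did not overlap either, nor did the melanocyte list, at 0 to 3.52 CPM late and 70.8 to 269 CPM in anagen. The part of these markers in the results was not tested. Dusp7 was higher in late organoids (1.20, SE 0.32, adjusted p = 0.0118), though late replicate 5 at 78.9 CPM lay under the highest epidermis library at 83 CPM. Spry2 overlapped and did not pass (0.36, SE 0.33, adjusted p = 0.608), nor did Etv5 (0.17, SE 0.73, adjusted p = 0.907).

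Against follicles, Spry2 was higher in every late library than in every follicle library, by 2.06 against anagen (SE 0.36, adjusted p = 0.000194) and 2.41 against mixed follicles (SE 0.39, adjusted p = 0.000102). Dusp7 likewise did not overlap either follicle group, whose highest library held 42.1 CPM (1.85, SE 0.32, adjusted p = 0.000188, and 1.76, SE 0.33, adjusted p = 0.000373). Dusp6 was higher by 2.39 against anagen (SE 0.68, adjusted p = 0.00872), where late replicate 4 at 69.0 CPM lay under the anagen libraries at 91.9 and 92.1 CPM, and by 3.68 against mixed follicles (SE 0.75, adjusted p = 0.000861), with no overlap. Etv4 was higher than in mixed follicles by 5.11 (SE 1.29, adjusted p = 0.00449), where late replicate 4 alone, with no count, overlapped. That count of 0 allows up to 3.90 CPM (3 counts, counting error only). Etv5 was higher than in mixed follicles by 2.25 (SE 0.85, adjusted p = 0.0434), again with overlap. Lower in late organoids than in anagen follicles were Fgfr1 (-2.62, SE 0.69, adjusted p = 0.00504), Spry1 (-1.77, SE 0.39, adjusted p = 0.00136) and Fgfr2 (-1.12, SE 0.44, adjusted p = 0.0475), each with overlapping libraries.

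The calls came to 5 of 9 members against epidermis (21.8% of 10843 genes), 6 of 9 against anagen (45.8%) and 5 of 9 against mixed follicles (39.7%), and the 3 comparisons share the late libraries. Library totals in place of TMM moved the median of all genes by -0.17, 0.23 and 0.82, and the share of higher calls from 56.2% to 46.9% against epidermis, from 46.3% to 56.4% against anagen and from 43.4% to 74.4% against mixed follicles. No called member reversed, but Fgfr1, Fgfr2 and Fgfr3 against mixed follicles, none called, changed sign. The call of Fgfr2 against anagen was lost in 14 of 17 alternatives (adjusted p 0.00105 to 0.439) and that of Etv5 against mixed follicles in 8 of 17 (0.000852 to 0.124), the first without each single library other than late replicate 4 and the second without each mixed library and without late replicate 1, 2 or 3. Fgfr1 against anagen failed without anagen replicate 1 (-2.0, adjusted p = 0.0502, within 3.16e-05 to 0.0617). Spry1 and Dusp7 against epidermis did not pass without epidermis replicate 2 (adjusted p = 0.139 and 0.0872) or replicate 3 (0.0597 and 0.0604), within 0.00664 to 0.360 and 0.00149 to 0.115 over 17 alternatives.

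**Figure D4:**
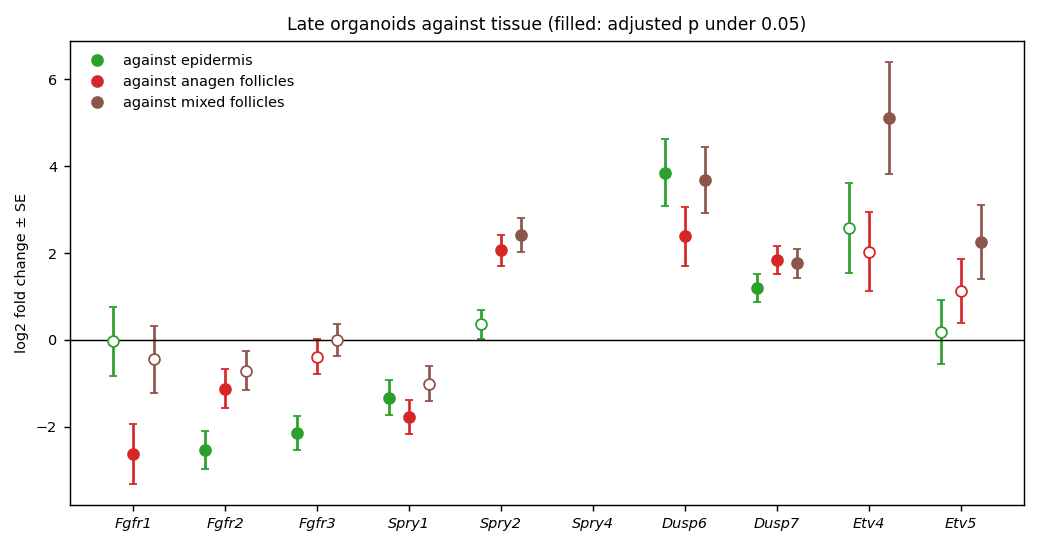
Log2 fold change of late organoids against sorted epidermis, anagen follicles and mixed follicles (y axis, with its standard error) for each gene (x axis). Filled points passed at an adjusted p under 0.05, and Spry4 was not tested. Dusp6 is above 0 in all 3 comparisons (3.84, 2.39 and 3.68), and Fgfr2 and Fgfr3 are far below 0 against epidermis (-2.54 and -2.15).

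Beyond the members, 8 of 22 tested genes of the other ERK feedback and ERK-induced list were higher in late organoids against epidermis and 2 lower, with a list median of 1.41, beside 0.04 over all genes tested, where 21.8% of all genes were called in either direction. Examples are Ier3, an immediate early gene (4.33, SE 0.51, adjusted p = 1.8e-05), Junb, an AP-1 subunit gene (1.56, SE 0.47, adjusted p = 0.0226), and Ccnd1, which encodes cyclin D1 (1.58, SE 0.55, adjusted p = 0.0459). Of 9 tested EGF receptor family and ligand genes 6 were higher, among them the ligands Hbegf (4.40, SE 0.73, adjusted p = 0.000395) and Tgfa (4.28, SE 0.88, adjusted p = 0.00226). In the RAS to ERK cascade, Map2k1, which encodes the kinase above ERK, was higher (2.27, SE 0.45, adjusted p = 0.00181) and the adaptor gene Gab1 lower (-1.25, SE 0.30, adjusted p = 0.00673), 4 of 19 higher and 2 lower in all. Over the wider FGF, ERK and EGF lists 28 of 70 tested genes were called. Against anagen follicles 9 of 22 genes of the ERK list were higher and 5 lower (45.8% of all genes called), and against mixed follicles 7 and 4 (39.7%). Over all the wider lists 31 and 32 of 70 were called there, shares near those of all genes.

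The 6 late libraries differed widely from each other in these genes. Replicates 1 and 2 were high for Dusp6 (403 and 834 CPM), Etv4 (129 and 153 CPM), Etv5 (52.1 and 55.7 CPM) and Spry2 (57.5 and 77.6 CPM), and these 2 libraries share a source table. Replicate 4 was lowest for Dusp6 (69.0 CPM) and Spry2 (27.3 CPM), had no count of Etv4 or Etv5, and was highest for Fgfr2 (93.7 CPM) and Fgfr3 (14.3 CPM). The differentiated epidermis list (7 of 8 genes detected at most) summed to 97.0, 158, 908, 22252, 4037 and 13735 CPM in replicates 1 to 6, lowest in replicates 1 and 2, where Dusp6 and Etv4 were highest, and highest in replicate 4. In replicates 3, 5 and 6 Dusp6 instead rose with that list, at 219, 258 and 323 CPM, and Etv4 was at 30.7, 35.6 and 19.0 CPM. The basal keratinocyte list summed to 19714, 27675, 31711, 15788, 21291 and 23715 CPM, lowest in replicate 4 too and next lowest in replicate 1. Their part in the spread was not tested. Without replicate 4, Etv4 passed against epidermis (2.85, adjusted p = 0.0163, within 0.000774 to 0.233 over 17 alternatives) and against anagen follicles (2.30, adjusted p = 0.0146, within 0.000447 to 0.210), and Fgfr2 passed as lower than in mixed follicles (-1.25, adjusted p = 0.00972, within 0.00972 to 0.932). Replicate 2 alone was high for Fgfr1 (53.3 CPM) and Spry1 (55.7 CPM), and without it both passed as lower than in mixed follicles (-1.57, adjusted p = 0.0384, within 0.0384 to 0.910, and -1.26, adjusted p = 0.0145, within 0.0145 to 0.851).

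**Figure D5:**
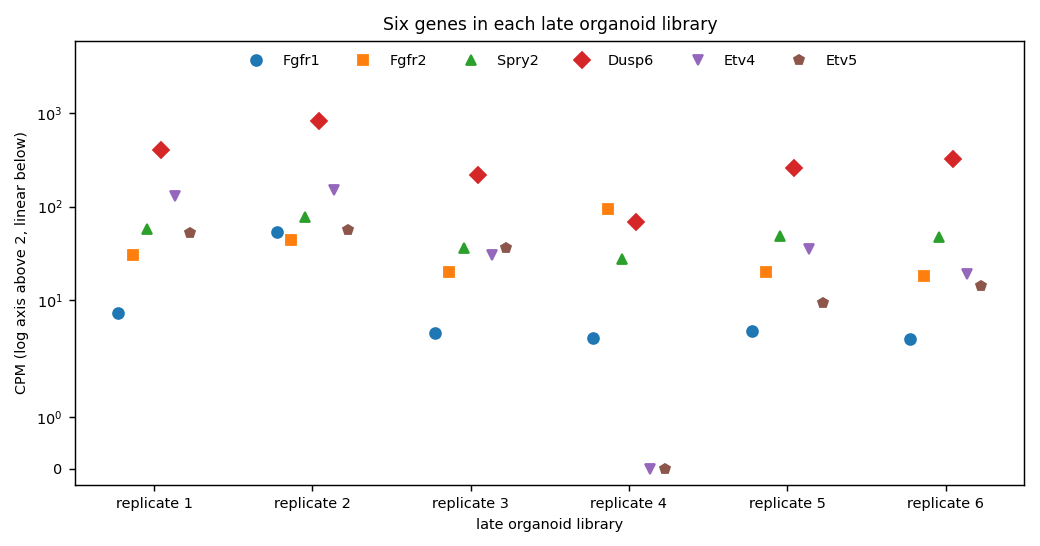
CPM of 6 of the genes (y axis, log scale above 2 CPM and linear below) in each of the 6 late organoid libraries (x axis), 1 point per gene and library. Replicates 1 and 2 are high for Dusp6, Etv4 and Etv5, and replicate 4 has no count of Etv4 or Etv5 and the highest Fgfr2, at 93.7 CPM.

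Genes with patterns most like those of the members were named by the Pearson correlation of log2(CPM + 2) over the 13 group means, among 8886 genes, for the 9 members with a mean of at least 5 CPM. The points share libraries of different depth and tissue, and the values are a description only. Closest to Dusp6 were Gja1 (0.961), Tmsb10 (0.960) and Lgals1 (0.946), and closest to Dusp7 were Glo1 (0.980), Actg1 (0.973) and Arpc2 (0.972). Spry2 was most like Nedd4 (0.944), Spry1 most like Cir1 (0.936), Etv4 most like Phc2 (0.979) and Etv5 most like Afap1l1 (0.926). Among the receptors, Fgfr1 was most like Dync2h1 (0.926), Fgfr2 most like Tshz1 (0.951) and Fgfr3 most like Lrig1 (0.923). Of the 27 genes named this way, 3 per member, 5 were also named when the 32 libraries were used in place of group means: Dync2h1 for Fgfr1, Tmsb10 for Dusp6, Arpc2 for Dusp7, and Afap1l1 and Col4a2 for Etv5.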

How the data were processed

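CEL-seq2 libraries were prepared from total RNA and read on a NextSeq500, per the labels' protocols. The submitters' processing notes name BWA 0.6.2-r126 and mm10. What counted the reads, with which annotation and strand, and whether molecular identifiers were used is not given in the sources used here. For each library the authors deposited 1 file of counts per gene, and no value departed from a whole number. Spike-in rows (at most 9 counts a library) were left out of totals, a gene with no row was taken as 0, and CPM are counts scaled to a total of 1000000. The 10 genes, the lists around them and the comparisons were chosen with earlier results of these data known.

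Tests used edgeR 4.0.16 (R 4.3.3). Low genes were removed by filterByExpr with groups given (minimum count 10, minimum total 15), libraries were scaled by TMM, and the quasi-likelihood test ran on the whole table, with Benjamini-Hochberg adjustment over all genes tested and a threshold of 0.05. Passaged organoids were fitted together (18 libraries, 9919 genes), as were tissues with Fgf1 organoids (17 libraries, 10843 genes) and early with unpassaged organoids (medium as a term, 16 libraries, 9984 genes). Standard errors are the absolute log2 fold change divided by the root of F. Unpassaged media had 1 library each and were compared by CPM ratio with exact binomial intervals. Alternatives were DESeq2 1.42.0, other scalings, no filter, thinned counts, a replicate block and leaving out each library. Intervals and floors of 3 counts cover counting error only. Every pair of replicates differed by more than sampling noise (chi-square per degree of freedom 3.47 to 69.5 over 38 pairs), so no library was taken as deposited more than 1 time. This does not show that replicates are independent. All 10 genes are named in each comparison, and up to 4 called genes of highest level per surrounding list. Positions are from GENCODE M21 unless RefSeq is named, and promoters from RefSeq. Figures were drawn with matplotlib 3.10.9 in Python 3.11.15.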

Additional observations from a re-analysis of the deposited data

Results flagged for a closer look

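In late organoids 4 values stood far from the other 5 libraries, by the gap to the nearest library over the whole range (Dixon's 95% critical value for 6 samples). Fgfr1 was at 53.3 CPM in replicate 2, with 7.19 CPM in the next library. Spry1 was at 55.7 CPM in the same replicate, with 26.7 CPM next. Fgfr2 was at 93.7 CPM in replicate 4, with 43.6 CPM next. Spry4 was at 1.80 CPM in replicate 1, which is 1 count, with 0.320 CPM next. These are 4 of 30 groups tested (13.3%), where chance gives about 1 in 20 for independent samples with a normal spread. The values are CPM of libraries of unlike depth, and the tests share libraries, so the 13.3% cannot be read against that rate.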

How the results depend on the processing

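Over 2297 values of single members under an alternative, 2179 kept their side of the threshold, 81 lost the call, 37 gained it and 0 called values reversed. The 2179 include uncalled values that changed sign, as some did with library totals. The number of members called moved as follows. For Fgf1 against Fgf10 (0 called) it was 1 with DESeq2 and 1 with only those groups fitted. For late against early Fgf1 organoids (1) it was 2 with DESeq2, 0 with thinned counts, 0 with only those groups, 5 with the early FGF libraries pooled, and 0 to 2 with 1 library left out (0 without either early library, 2 without late replicate 4). For passaging it was, over all media (4), 2 with thinned counts and 2 to 4 with 1 library left out. In FGF media (3) leaving out 1 library gave 0 to 4, with 0 without the unpassaged Fgf10 library. In inhibitor media (1) it was 2 without the filter, 2 with DESeq2, 2 with library totals, 0 with thinned counts and 0 to 1 with 1 library left out. For epidermis against anagen (4) it was 0 with thinned counts and 2 to 3 with 1 library left out, and against mixed follicles (3) it was 1 with thinned counts, 5 with library totals and 2 to 3. For anagen against mixed follicles (0) it was 2 without the filter. For late organoids against epidermis (5) it was 3 with thinned counts and 3 to 6 with 1 library left out (3 without epidermis replicate 2 or 3), against anagen (6) 3 and 4 to 7, and against mixed follicles (5) 4 to 6 with 1 library left out. With 1.5-fold in place of 2-fold, 5 members passed for the inhibitor in unpassaged organoids. Thinning removed reads and left fewer genes; the cause of the other moves was not tested. Where a group was left with 1 library, it was assumed to vary like the other groups. Library totals and a filter by the design, which changed no member's call, were chosen after seeing the data.

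Whether equal replicate numbers mark paired samples cannot be told from these data. Same-numbered libraries of different groups had correlated deviations over 0.1 in 6 of 26 pairs of passaged organoids, and different-numbered ones in 28 of 98. In tissues and Fgf1 organoids it was 3 of 26 and 7 of 85 pairs. In groups of 2 libraries the deviations mirror each other, so these pairs are not independent. With the replicate number as a block the members called were 1 for passaging over all media, 2 in FGF media, 0 in inhibitor media, 5 for epidermis and 1 for anagen against mixed follicles, 5 for late organoids against epidermis, 8 against anagen and 6 against mixed follicles. For passaging, calls over all genes under the block were 96, 157 and 8 in that order, against 1136, 428 and 48 as fitted. For the others 30.3%, 6.63%, 21.8%, 45.8% and 39.7% of all genes were called as fitted.

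Over all genes, calls for Fgf1 against Fgf10 went from 0 to as many as 43, for forskolin from 0 to 33, for Fgf10 against the inhibitor from 57 to between 3 and 138, and for Fgf1 against it from 59 to between 4 and 163. Late against early went from 666 to between 1 and 2453, passaging over all media from 1136 to as few as 96, in FGF media from 428 to between 7 and 1016, and in inhibitor media from 48 to between 0 and 671. The difference between them went from 3 to between 0 and 103. Thinned counts gave 1524, 1267, 192, 845, 2229 and 1844 calls for the tissue comparisons in the order of the text, against 3711, 3289, 719, 2360, 4966 and 4308. In the shallowest library 3 counts are 7.27 CPM, which limits what can be said of Spry4 and Fgfr1.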
